A study of Homo sapiens with 10 samples.

Results

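The genes of glycolysis and of the response to low oxygen described here are 36 genes, taken by name from a list and not by a cutoff on a value. The list was chosen with earlier results of these data known, so its shares beside all genes are descriptions only. All 36 were found among the 54826 entries of the table. They comprise 2 glucose transporters (SLC2A1, SLC2A3), 17 glycolytic enzymes, 3 kinases that set the flux into or out of the pathway (PDK1, PFKFB3, PFKFB4), 13 other targets of the hypoxia response and HIF1A itself. All 36 passed the filter of a mean of at least 0.5 FPKM (fragments scaled by gene length and by the size of the library), which kept 14689 genes for testing. The entries of GPI, ENO2, PFKFB4 and HIF1A carry a second protein-coding name (PDCD2L, LRRC23, UCN2 and SNAPC1), so their values are uncertain. Pseudogene entries summed to at most 3.13% of BNIP3, 1.39% of TPI1, 0.967% of LDHA and 0.496% of GAPDH in any library. For EGLN3 they reached 51.6%, and its level is uncertain for that reason too.

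Glycolysis breaks glucose down to pyruvate and lactate in the cytosol, and many tumor cells, melanoma cells among them, run it even where oxygen is present. Many of its genes also belong to the response to low oxygen. The transcription factor HIF-1 pairs an oxygen-regulated alpha subunit, encoded by HIF1A, with a constant partner, and it switches on glucose transporters, glycolytic enzymes and a wider set of targets. With oxygen present, prolyl hydroxylases of the EGLN family mark the alpha subunit for destruction, so the activity of HIF-1 is set mostly at the level of the protein, which RNA-seq does not measure.

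RNA came from WM164 cells, an established human melanoma line, in which the study asked how vitamin D compounds act with and without their nuclear receptor, the VDR. Of the 10 libraries, 5 carry the label VDR-KD (a knockout by the sample labels and a knockdown by the paper) and 5 the label VDR-WT (cells given a scrambled infection by the labels, and mock transfected by the paper). Each genotype had 1 library with 0.1% ethanol, the vehicle, and 1 for each of the compounds 20(OH)D3 and 25(OH)D3, which lack a hydroxyl at C1α, and 1,20(OH)2D3 and 1,25(OH)2D3, which carry it, at 100 nM, all for 24 h in charcoal-treated serum with insulin in the medium. The label of the VDR-KD 20(OH)D3 library reads 2(OH)D3 where its title reads 20OHD3, and the title was followed. No condition had a replicate, the labels name no separately made clones, and the submitters mention triplicates without saying whether these were pooled. What the p-values measure is thus the scatter of these libraries alone, and some of it may be technical.

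VDR mRNA itself was 12.0 to 14.8 FPKM in the libraries labelled VDR-KD, against 5.54 to 9.63 FPKM in those labelled VDR-WT. This is higher under the label that says the receptor was removed (log2 fold change 0.78, adjusted p = 0.006 from limma), so every direction below follows the labels. Melanocytic genes marked the line as labelled, with PMEL at 3266 to 5200 FPKM and MLANA at 1538 to 2992 FPKM, although TYRP1 stayed at or below 1.49 FPKM. Of the markers of other cell types, KRT5, KRT14 and CD3E (keratinocytes and T cells) were listed at 0 in every library. Among the other 13, KRT10 was at 5.49 to 11.7 FPKM, the fibroblast marker LUM at 70.8 to 130.3 FPKM, DCN at 1.27 to 5.55 FPKM and the leukocyte marker LYZ at 1.46 to 3.92 FPKM, and the remaining 9 stayed at or below 1.24 FPKM. The heat shock gene HSPA6 split the libraries across the groups, at 0.47 and 0.72 FPKM in VDR-KD 1,20(OH)2D3 and 1,25(OH)2D3, and at 0.65 and 0.18 FPKM in VDR-WT 20(OH)D3 and 1,25(OH)2D3, against 6.71 to 44.5 FPKM in the other 6. Results are therefore also given without VDR-KD 1,20(OH)2D3 and VDR-WT 20(OH)D3, called here the unpaired low-HSPA6 libraries because the partner with the same treatment was not low. The sum of FPKM ran from 577696 in VDR-KD ethanol to 651658, no read counts were used, and the depth behind each value is unknown.

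The levels of these genes, which FPKM gives per length, spanned a wide range. GAPDH, which oxidizes glyceraldehyde-3-phosphate and sits at 6533927 to 6538374 of chromosome 12 in GRCh38, averaged 6199 FPKM over the 10 libraries and alone made up 0.752% to 1.15% of a library's FPKM. LDHA, the subunit that favors lactate formation (chromosome 11, 18394388 to 18408425), averaged 1767 FPKM. ENO1 averaged 1470 FPKM, TPI1 1384, ALDOA 1169, PKM 1072, LDHB 994 and PGK1 588. The 36 genes together took 2.25% of the FPKM in VDR-KD ethanol and 2.59% to 3.02% in the other 9 libraries. At the low end stood ANKRD37 at 12.3 FPKM, CA9 at 2.07 and EGLN3 at 1.48. CA9, a cell surface carbonic anhydrase that acidifies the surroundings of hypoxic cells, was thus close to the filter on low values.

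With VDR-KD set against VDR-WT, which asks what differs between the cell populations over all 5 treatments, 16 of the 36 genes were lower in VDR-KD, 1 was higher (HIF1A) and 19 did not pass (limma on log2 of FPKM plus 0.1, treatment as a block, adjusted p under 0.05 over all 14689 genes). Of all genes tested, 9.68% were lower and 13.1% higher by the same rule. The 36 genes were chosen with earlier results of these data known, so this is no independent comparison. The median log2 fold change was -0.21 for the 36 genes and 0.02 for all genes, and 28 of 36 lay below 0, beside 47.8% of all genes. Without the entries shared with another coding gene, 15 of 32 were lower and none was higher. With the libraries scaled to one sum without mitochondrial and top entries, the split was 16 lower and 4 higher (HIF1A, HK1, P4HA2 and PFKFB4). The count was 8 without the treatment block (replicate block), 8 without the variance trend of limma, and 6 (BNIP3, BNIP3L, KDM3A, P4HA1, PDK1 and SLC2A3) without the unpaired low-HSPA6 libraries. Other gene groups moved with the same contrast. Of 8 melanocytic markers, 3 were lower in VDR-KD (TYR, PMEL and MITF) and none higher, with sums of 5758 to 8389 FPKM in VDR-KD, against 6339.7 to 9322 FPKM in VDR-WT. Of 11 heat shock genes, 3 were higher in VDR-KD (HSPA4L, DNAJB1 and HSPH1) and none lower, with sums of 3685 to 4654 FPKM in VDR-KD, against 3008 to 3989.7 FPKM in VDR-WT. LUM and LYZ were higher in VDR-KD and DCN lower, and the part of these groups in the result was not tested. In bulk RNA, fewer cells that express a gene and less of its RNA per cell cannot be told apart.

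**Figure D1:**
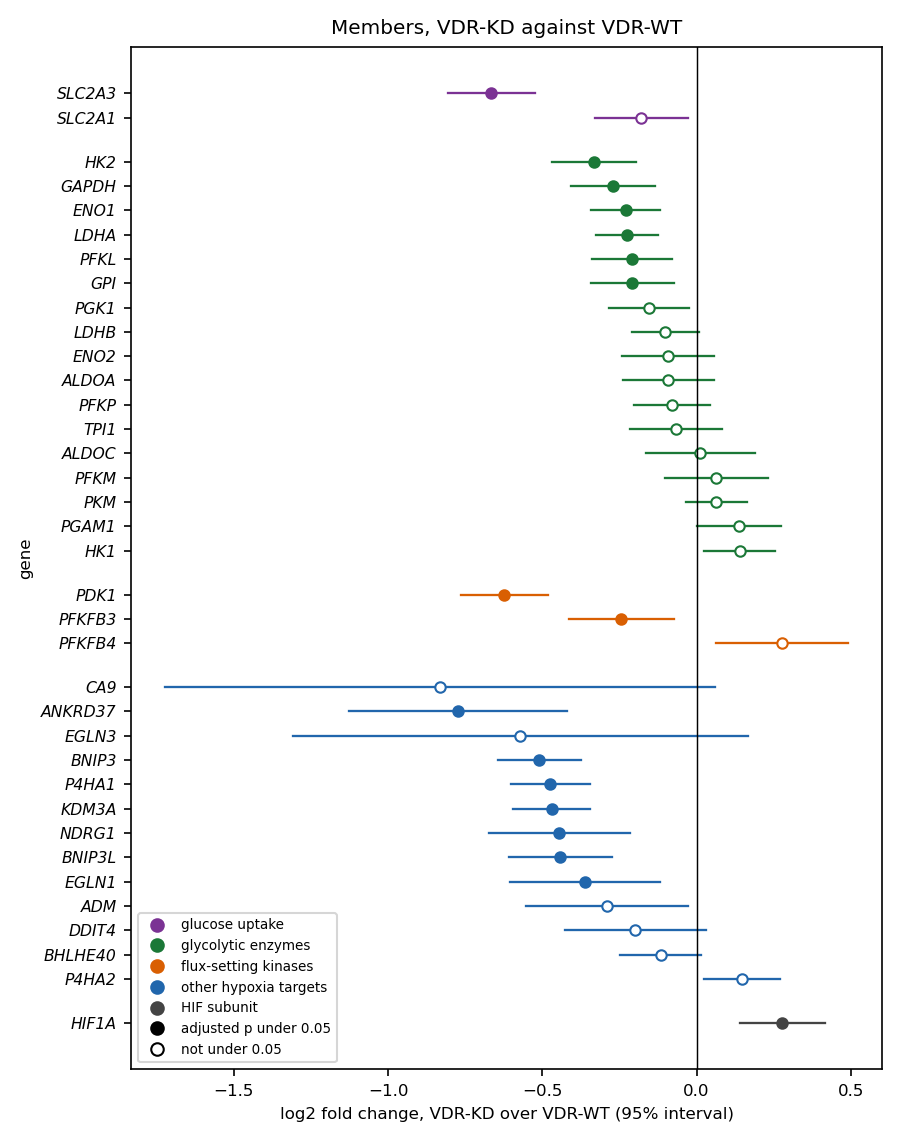
Log2 fold change of each of the 36 genes, VDR-KD over VDR-WT, with 95% intervals from limma on 5 treatment pairs, grouped by set from glucose uptake at the top to HIF1A at the bottom. Filled points passed an adjusted p of 0.05. They run from -0.77 for ANKRD37 to 0.28 for HIF1A, and those of the other hypoxia targets (blue) lie further below 0 than those of the enzymes (green).

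Of the sets, the hypoxia targets outside glycolysis had the lowest median log2 fold change (-0.45), with 7 of 13 lower in VDR-KD and none higher. SLC2A3 (-0.67) and PDK1 (-0.62), placed in other sets, changed more than each of these 7 except ANKRD37. In the order ethanol, then 20(OH)D3, then 25(OH)D3, then 1,20(OH)2D3, then 1,25(OH)2D3, which is kept throughout, ANKRD37 was at 5.27, 12.3, 8.45, 9.32 and 10.5 FPKM in the VDR-KD libraries, against 13.7, 14.4, 11.9, 19.3 and 17.7 FPKM in the VDR-WT libraries. ANKRD37 encodes an ankyrin repeat protein known as a direct HIF-1 target, and its log2 fold change was -0.77 (SE 0.154, adjusted p = 0.00863), lower in 5 of 5 pairs, although the highest VDR-KD value exceeded the lowest VDR-WT value. BNIP3, a receptor that sends mitochondria to autophagy, was at 45.8, 62.6, 54.3, 62.9 and 77.0 FPKM in VDR-KD, against 71.6, 84.7, 74.5, 97.5 and 100.3 FPKM in VDR-WT. It was lower in 5 of 5 pairs (log2 fold change -0.51, SE 0.058, adjusted p = 0.000823). Its relative BNIP3L, with the same role, had 37.8, 70.1, 51.2, 63.9 and 69.7 FPKM in VDR-KD, against 64.0, 84.7, 68.6, 84.4 and 89.6 FPKM in VDR-WT. The VDR-KD ethanol value of BNIP3L stands well under the rest of its group, and the log2 fold change was -0.44 (adjusted p = 0.00381).

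P4HA1, a subunit of the hydroxylase that matures collagen, separated the genotypes completely. It was at 89.4, 107, 101, 107 and 114 FPKM in VDR-KD, against 143, 137, 136, 146 and 156 FPKM in VDR-WT (log2 fold change -0.47, SE 0.056, adjusted p = 0.000904). KDM3A, a demethylase of histone H3 lysine 9, did the same, with 31.7, 35.2, 33.8, 36.1 and 38.3 FPKM in VDR-KD, against 44.7, 48.1, 47.9, 46.0 and 56.3 FPKM in VDR-WT (log2 fold change -0.47, adjusted p = 0.000879). The groups of NDRG1, a cytoplasmic protein induced by several stresses, overlapped, at 25.2, 41.0, 37.6, 29.5 and 27.0 FPKM in VDR-KD, against 43.0, 47.1, 41.5, 47.3 and 36.5 FPKM in VDR-WT. NDRG1 was lower in 5 of 5 pairs (log2 fold change -0.45, adjusted p = 0.0145). EGLN1, the main prolyl hydroxylase that destabilizes HIF-1 alpha, was at 29.5, 40.1, 32.8, 32.6 and 46.4 FPKM in VDR-KD, against 47.0, 39.7, 45.2, 49.4 and 49.6 FPKM in VDR-WT. It was lower in 4 of 5 pairs, with the 20(OH)D3 pair nearly equal (log2 fold change -0.36, adjusted p = 0.042).

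Promoters are shown for 4 of the genes with the largest changes that passed between the genotypes, because HIF-1 binds a short core in DNA. The sequences are from RefSeq (GRCh38.p14), 5′ to 3′ on the strand of the gene, the 250 bases before the start, with each match to the core ACGTG or GCGTG, on either strand, in capitals (CACGTG reads as the core on both strands). They belong to ANKRD37 (chr4:185396591-185396840, plus strand), PDK1 (chr2:172555123-172555372, plus strand), BNIP3 (chr10:131981924-131982173, minus strand) and P4HA1 (chr10:73096867-73097116, minus strand).
ANKRD37: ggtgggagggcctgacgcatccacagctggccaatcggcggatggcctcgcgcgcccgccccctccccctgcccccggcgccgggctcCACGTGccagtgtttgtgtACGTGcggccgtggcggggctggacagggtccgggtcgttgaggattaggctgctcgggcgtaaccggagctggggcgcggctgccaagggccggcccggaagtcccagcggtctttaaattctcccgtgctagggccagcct
PDK1: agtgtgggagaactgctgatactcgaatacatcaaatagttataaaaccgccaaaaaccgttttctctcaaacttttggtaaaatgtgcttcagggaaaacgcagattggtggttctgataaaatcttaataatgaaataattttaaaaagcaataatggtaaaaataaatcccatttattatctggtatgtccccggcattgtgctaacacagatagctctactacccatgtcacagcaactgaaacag
BNIP3: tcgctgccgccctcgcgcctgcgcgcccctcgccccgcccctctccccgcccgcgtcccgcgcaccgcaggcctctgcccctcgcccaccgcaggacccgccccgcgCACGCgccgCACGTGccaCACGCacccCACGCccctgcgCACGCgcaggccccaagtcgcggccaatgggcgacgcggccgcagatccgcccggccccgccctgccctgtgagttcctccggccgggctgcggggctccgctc
P4HA1: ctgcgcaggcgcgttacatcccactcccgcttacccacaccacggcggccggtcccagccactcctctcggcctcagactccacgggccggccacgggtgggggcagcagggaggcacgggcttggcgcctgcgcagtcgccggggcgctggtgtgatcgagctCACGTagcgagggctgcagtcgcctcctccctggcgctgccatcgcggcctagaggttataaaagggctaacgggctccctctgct

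In ANKRD37 the cores begin 162 and 143 bases before the start. In BNIP3 they crowd between 143 and 104 bases before it, with a CACGTG at 134 in the middle. P4HA1 has a single core at 86, and the printed window of PDK1 holds none. For each member only 1 window was searched, so cores near any other start of a gene, PDK1 included, were not looked for. Over the whole window of the table, 250 bases before to 50 after the start, at least 1 core was found in 25 of the 33 members with an entry (75.8%) and in 48.4% of all 35116 promoters. By set these were 12 of 17 enzymes and 9 of 11 other hypoxia targets, and by outcome 12 of the 13 genes lower in VDR-KD and 12 of the 19 that did not pass. SLC2A3, BNIP3L and NDRG1 had no entry. The 35116 promoters were not limited to the genes tested above, so the shares of members and of all promoters are not like for like. A match is a description of letters and no evidence of binding in these cells.

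Among the 17 glycolytic enzymes 6 were lower in VDR-KD, none was higher and 11 did not pass. The count of lower enzymes was 1 (HK2) without the treatment block, 1 (HK2) without the trend and 0 without the unpaired low-HSPA6 libraries, where the 7 lower hypoxia targets became 5, 5 and 4. HK2, the inducible hexokinase that traps glucose in the cell, was at 67.6, 72.5, 75.4, 70.8 and 84.0 FPKM in VDR-KD, against 97.5, 88.0, 86.3, 93.5 and 101 FPKM in VDR-WT. These do not overlap, and the log2 fold change was -0.33 (SE 0.060, adjusted p = 0.00567). GAPDH was at 4345, 6557, 5493, 6312 and 5503 FPKM in VDR-KD, against 6178, 7512, 6743, 6835 and 6515 FPKM in VDR-WT. The pairs were lower 5 of 5 times (log2 fold change -0.27, adjusted p = 0.013), most so with ethanol, and the groups overlapped. ENO1, an enolase, was at 1132, 1470.4, 1324, 1386 and 1459 FPKM in VDR-KD, against 1467, 1734, 1428, 1666 and 1637 FPKM in VDR-WT (log2 fold change -0.23, adjusted p = 0.0108). LDHA was at 1341, 1611, 1485, 1651 and 2025 FPKM in VDR-KD, against 1480.1, 1883, 1657, 2044 and 2496 FPKM in VDR-WT (log2 fold change -0.23, adjusted p = 0.00766). Both were lower in every pair, and the range of LDHA over the treatments of a genotype was wider than the gap between the genotypes.

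PFKL, the liver type of phosphofructokinase, was at 34.7, 37.3, 37.8, 41.4 and 44.4 FPKM in VDR-KD, against 43.2, 42.9, 40.1, 47.2 and 53.1 FPKM in VDR-WT (log2 fold change -0.21, adjusted p = 0.0293). GPI, which converts glucose-6-phosphate to fructose-6-phosphate, was at 219, 289, 268, 281 and 278 FPKM in VDR-KD, against 299.6, 324, 305, 314 and 294 FPKM in VDR-WT (log2 fold change -0.21, adjusted p = 0.0353, uncertain because of PDCD2L). The GPI groups did not overlap, but the gap between them was small beside the distance of the VDR-KD ethanol library from its group. The other 11 enzymes had log2 fold changes between -0.15 (PGK1, adjusted p = 0.0819) and 0.14 (HK1, adjusted p = 0.0808). PGK1, which makes the first ATP of the pathway, had 422, 589, 509.7, 621 and 651 FPKM in VDR-KD, against 553, 648, 529, 650.2 and 711 FPKM in VDR-WT. HK1, the constitutive hexokinase, averaged 111 ± 7.99 FPKM over the VDR-KD libraries, against 101 ± 6.59 FPKM over the VDR-WT libraries (SD, n = 5 each), above VDR-WT in 5 of 5 pairs without passing the test.

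Of the glucose transporters, SLC2A3 (GLUT3, chromosome 12 from 7919230 to 7936275) had the smallest adjusted p of the 36 genes. It was at 53.4, 73.2, 57.4, 67.7 and 45.5 FPKM in VDR-KD, against 95.6, 109, 89.2, 96.5 and 77.2 FPKM in VDR-WT. The groups did not overlap, and the log2 fold change was -0.67 (SE 0.061, adjusted p = 0.000311). SLC2A1 (GLUT1) did not pass (log2 fold change -0.18, adjusted p = 0.0845). PDK1, a kinase that inhibits pyruvate dehydrogenase (chromosome 2 from 172555373 to 172608669), was at 31.2, 38.6, 30.4, 41.3 and 40.8 FPKM in VDR-KD, against 50.1, 53.2, 47.2, 60.6 and 70.3 FPKM in VDR-WT. Its groups did not overlap either (log2 fold change -0.62, SE 0.062, adjusted p = 0.000436). PFKFB3, which makes the activator of phosphofructokinase, was at 17.3, 18.6, 21.6, 19.2 and 25.0 FPKM in VDR-KD, against 22.4, 24.9, 22.2, 22.8 and 27.8 FPKM in VDR-WT. It had the highest adjusted p of the genes that passed (log2 fold change -0.24, adjusted p = 0.0475). PFKFB4, of the same family, went the other way without passing (log2 fold change 0.28, adjusted p = 0.066).

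HIF1A (chromosome 14 from 61695513 to 61748259) was the only gene called higher in VDR-KD. Like HK1 and P4HA2, which did not pass, it was higher in 5 of 5 pairs. It was at 231, 213, 195, 189 and 272 FPKM in VDR-KD, against 188, 150.4, 175, 154 and 248 FPKM in VDR-WT (log2 fold change 0.28, SE 0.060, adjusted p = 0.0126). In both genotypes the 1,25(OH)2D3 library was the highest. The entry also holds SNAPC1, and its call was lost without the treatment block, without the trend and without the unpaired low-HSPA6 libraries.

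**Figure D2:**
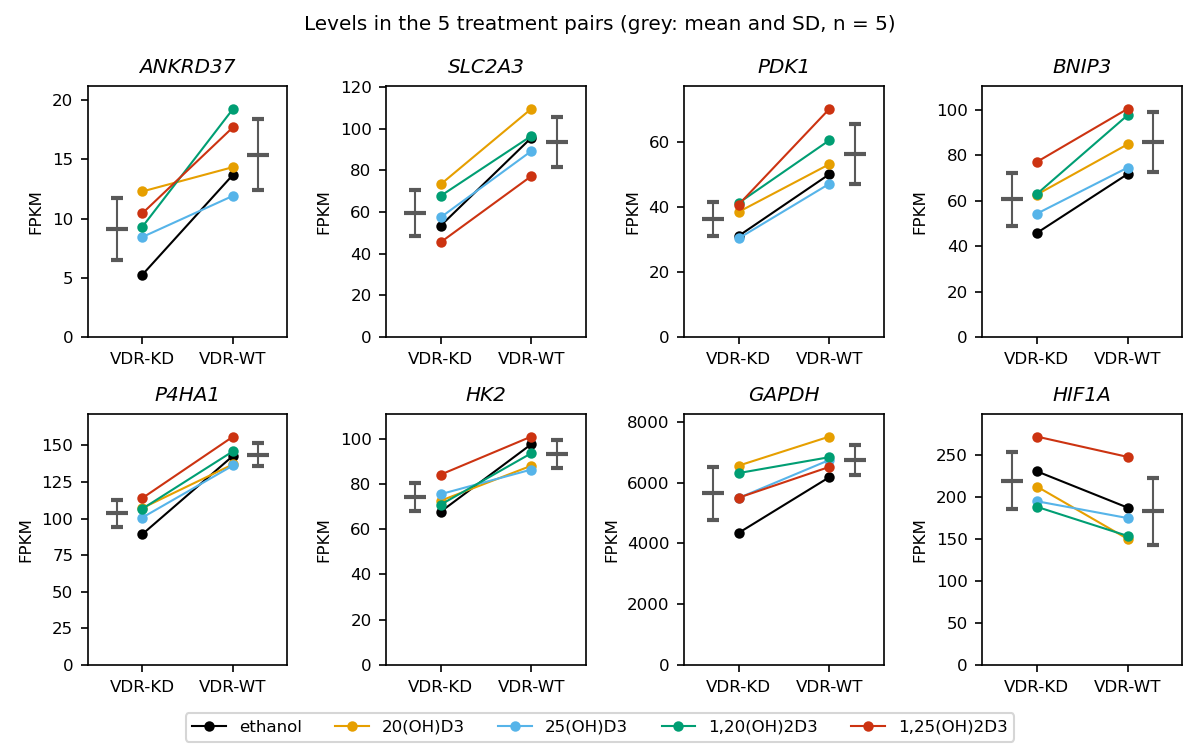
FPKM of 8 genes in the 5 treatment pairs, VDR-KD at left and VDR-WT at right in each panel, with lines joining libraries of the same treatment and grey marks for the mean and SD (n = 5 libraries per genotype). SLC2A3, PDK1, P4HA1 and HK2 separate the genotypes without overlap, ANKRD37, BNIP3 and GAPDH overlap, and HIF1A slopes the other way in all 5 pairs.

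In all, 6 of the 36 genes (SLC2A3, HK2, GPI, PDK1, KDM3A and P4HA1) had every VDR-KD library below every VDR-WT library, and none had every VDR-KD library above. Of all genes tested, 5.58% lay wholly below and 9.03% wholly above. The 6 hypoxia targets that did not pass were CA9, EGLN3, ADM, DDIT4, BHLHE40 and P4HA2. CA9 had the largest difference of all (log2 fold change -0.83) but the 95% interval ran from -1.72 to 0.06, and it was lower in only 3 of 5 pairs. EGLN3, the inducible prolyl hydroxylase, had a log2 fold change of -0.57 with an interval from -1.31 to 0.17. ADM, a vasodilating peptide hormone, was below VDR-WT in 5 of 5 pairs (log2 fold change -0.29, adjusted p = 0.104). P4HA2, the sister subunit of P4HA1, was above VDR-WT in 5 of 5 pairs (log2 fold change 0.15, adjusted p = 0.0823), so the collagen hydroxylase subunits stood on opposite sides.

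Set side by side, the glycolytic enzymes had a median log2 fold change of -0.09 and the other hypoxia targets one of -0.45, a difference of medians of 0.35. Taken within each pair, the enzymes exceeded the targets by 0.36 with ethanol, 0.12 with 20(OH)D3, 0.35 with 25(OH)D3, 0.34 with 1,20(OH)2D3 and 0.28 with 1,25(OH)2D3 (SD 0.098 over the 5 pairs). The enzymes thus stood nearer to 0 than the targets in 5 of 5 treatments. Without the unpaired low-HSPA6 libraries the difference was 0.27. Genes of a set share their libraries, and this comparison was not tested.

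The genotype difference was widest with ethanol. The median log2 ratio of VDR-KD over VDR-WT was -0.37 with ethanol (32 of 36 genes lower), -0.15 with 20(OH)D3 (25 lower), -0.13 with 25(OH)D3 (27 lower), -0.16 with 1,20(OH)2D3 (25 lower) and -0.11 with 1,25(OH)2D3 (24 lower). Of all genes tested, 47.0% to 49.7% were lower in VDR-KD, depending on the pair. For 28 of the 36 genes, 16 of the 17 enzymes among them, the VDR-KD ethanol library had the lowest value of all 10, a count made after the values were seen. That library was the lowest for 13.6% of all genes tested. The median deviation of the 36 genes from their own means was -0.37 there and between -0.14 and 0.20 in the other 9 libraries, while that of all tested genes was 0.02 there. PKM, the pyruvate kinase, was at 976, 1147, 1111, 1136 and 1114 FPKM in VDR-KD, against 1020.0, 1096, 1038, 1059.8 and 1026 FPKM in VDR-WT, so that the VDR-KD ethanol library was below every VDR-WT library and the other 4 VDR-KD libraries above every one. The same library had the lowest sum of FPKM, and with a single library of this condition the library and the condition cannot be told apart. Without the ethanol pair 12 genes remained lower in VDR-KD and 2 were higher (HIF1A and PFKFB4).

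**Figure D3:**
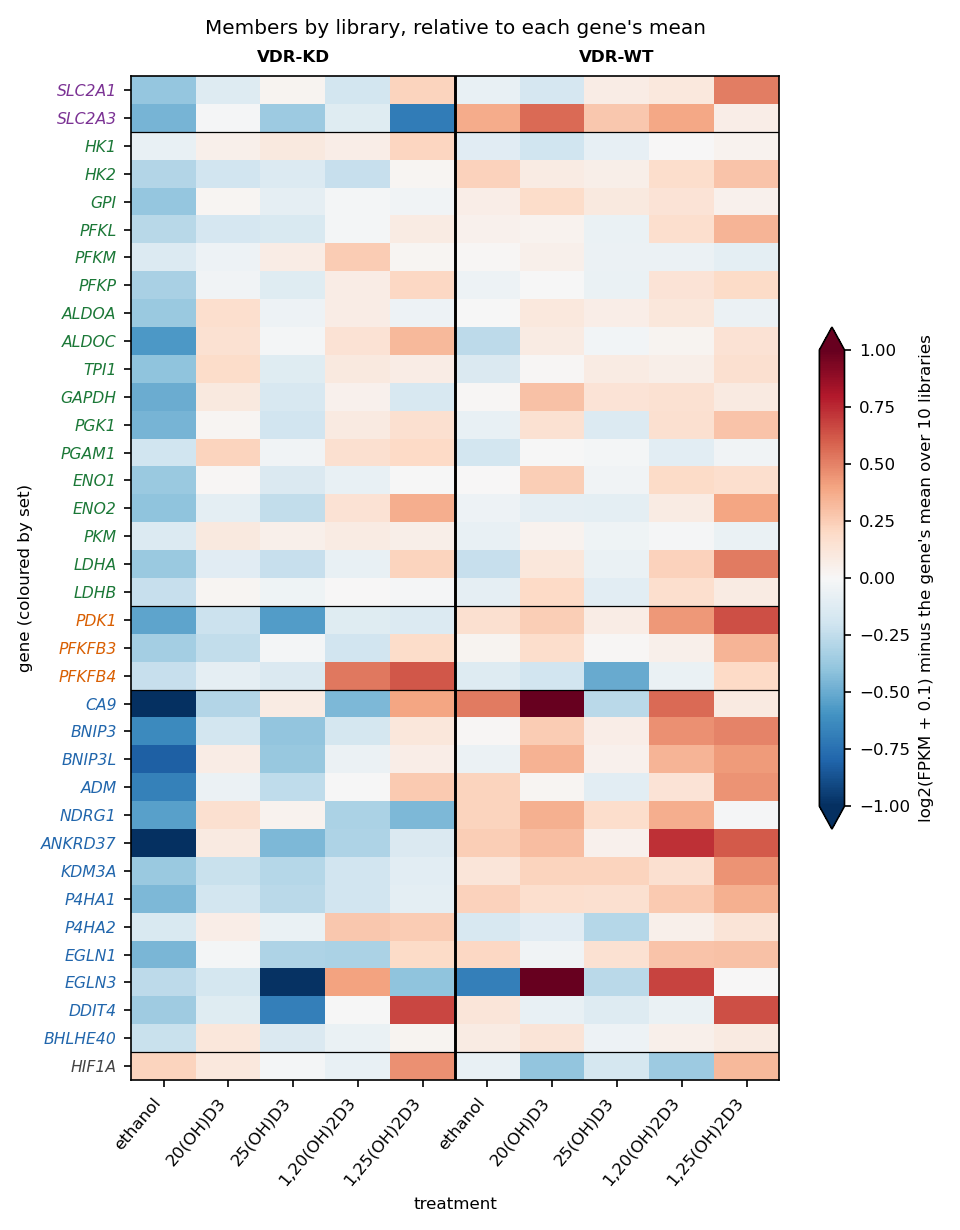
Log2 of FPKM plus 0.1 minus the mean of the gene over 10 libraries, for the 36 genes (rows, grouped and colored by set) in the 5 VDR-KD libraries at left and the 5 VDR-WT libraries at right, with colors cut at -1 and 1. The VDR-KD ethanol column is blue in nearly every row, with a median of -0.37, and the VDR-WT 1,25(OH)2D3 column, with a median of 0.20, is the reddest.

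Against ethanol, 1,25(OH)2D3, the hormone, raised 7 of the 36 genes and lowered none, where 1.46% of all genes tested were higher (limma, genotype as a term, 2 libraries per treatment). The median log2 fold change of the 36 genes was 0.34, and 34 of 36 lay above 0, beside 49.2% of all genes. LDHA had the smallest adjusted p, at 2025 FPKM (VDR-KD) and 2496 FPKM (VDR-WT) with 1,25(OH)2D3, against 1341 and 1480.1 FPKM with ethanol (log2 fold change 0.67, SE 0.0695, adjusted p = 0.00384). Every 1,25(OH)2D3 value of LDHA lay above both ethanol values, and it was the highest of its genotype. BNIP3 had 77.0 and 100.3 FPKM with 1,25(OH)2D3, against 45.8 and 71.6 FPKM with ethanol (log2 fold change 0.62, adjusted p = 0.0161). BNIP3L had 69.7 and 89.6 FPKM with 1,25(OH)2D3, against 37.8 and 64.0 FPKM with ethanol (log2 fold change 0.68, adjusted p = 0.0248). Both mitophagy receptors thus moved together, by similar amounts.

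The remaining genes that rose with 1,25(OH)2D3 serve transport and the pathway itself. SLC2A1, the main glucose transporter of most cells, was at 79.9, 95.6, 106, 91.7 and 122 FPKM in VDR-KD, against 99.2, 92.9, 110.1, 112 and 149 FPKM in VDR-WT, with 1,25(OH)2D3 highest in each (log2 fold change over ethanol 0.60, adjusted p = 0.0273). ALDOC, an aldolase, was at 27.9, 46.2, 41.0, 46.0 and 52.0 FPKM in VDR-KD, against 34.7, 44.0, 40.7, 42.4 and 45.9 FPKM in VDR-WT. Its ethanol value was the lowest in each genotype, so all 4 compounds stood above it (log2 fold change of 1,25(OH)2D3 over ethanol 0.65, adjusted p = 0.0362). ENO2, the neuronal enolase, was at 107, 133, 119.6, 156 and 183 FPKM in VDR-KD, against 137, 133, 132, 149.8 and 186 FPKM in VDR-WT (log2 fold change over ethanol 0.60, adjusted p = 0.0253, uncertain because of LRRC23). PGK1, whose values stand above, rose by 0.49 on the log2 scale (adjusted p = 0.0315). SLC2A3 went against SLC2A1, with 45.5 and 77.2 FPKM with 1,25(OH)2D3, against 53.4 and 95.6 FPKM with ethanol (log2 fold change -0.27, not past the test at adjusted p = 0.215).

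These calls are less firm than those between the genotypes. With 1 library left out at a time the count of 7 became 1 (LDHA) without VDR-KD ethanol and 0 without VDR-KD 1,25(OH)2D3 or VDR-WT 1,25(OH)2D3. It was 4 without VDR-KD 20(OH)D3, 2 without VDR-KD 25(OH)D3 or VDR-WT 25(OH)D3, and 3 without VDR-KD 1,20(OH)2D3 or VDR-WT 1,20(OH)2D3. It was 0 without the genotype term (replicate block) or the trend, and 1 (LDHA) without the unpaired low-HSPA6 libraries. HSPA6 was at 0.72 (VDR-KD) and 0.18 (VDR-WT) FPKM with 1,25(OH)2D3, against 32.3 and 9.37 FPKM with ethanol, without passing (adjusted p = 0.150 from limma). Of 11 heat shock genes tested, 1 was higher with 1,25(OH)2D3 (DNAJB1, log2 fold change 0.53, adjusted p = 0.0118) and none lower. Melanocytic genes moved with this contrast as well, 3 of 8 being higher with 1,25(OH)2D3 (MITF, MLANA and S100B) and none lower. Their sum was 8389 (VDR-KD) and 9322 (VDR-WT) FPKM with 1,25(OH)2D3, against 5758 and 7489.8 FPKM with ethanol, and the part of either in the result was not tested.

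**Figure D4:**
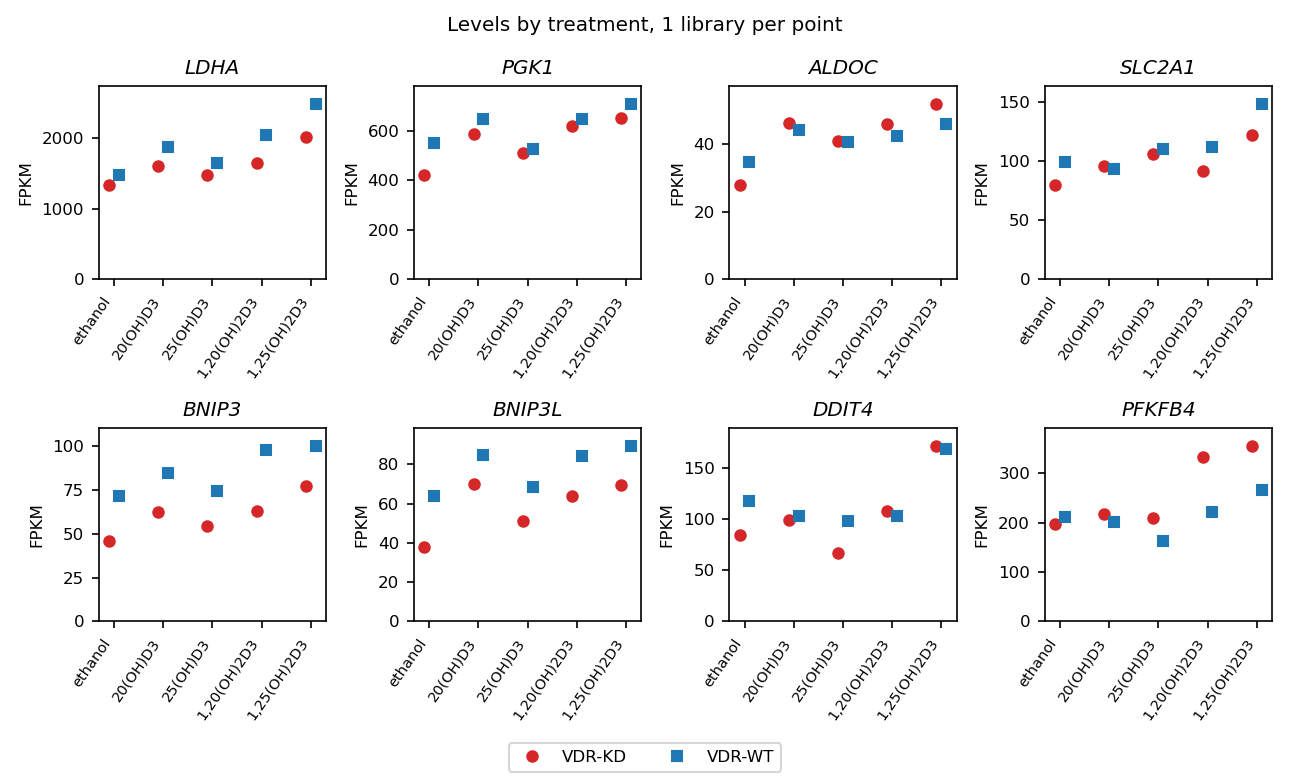
FPKM of 8 genes by treatment, 1 library per point, with VDR-KD as red circles and VDR-WT as blue squares. LDHA reaches 2025 (VDR-KD) and 2496 FPKM (VDR-WT) with 1,25(OH)2D3, and DDIT4 reaches 172 and 169 FPKM there. The 25(OH)D3 values of DDIT4 lie below those with ethanol in both genotypes.

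The other compounds gave no call among the 36 genes. With 1,20(OH)2D3 against ethanol 0 passed (0.0204% of all genes did) and 18 had an unadjusted p under 0.05 in limma (12.5% of all genes), 17 of them higher, with a median log2 fold change of 0.24. With 20(OH)D3 against ethanol 0 passed (0.0% of all genes), 18 had an unadjusted p under 0.05 (14.2% of all genes), 17 of them higher, and the median was 0.20. With 25(OH)D3 against ethanol 0 passed (0.0% of all genes), 5 had an unadjusted p under 0.05 (8.03% of all genes), all higher, and the median was 0.09. The 4 comparisons share the same ethanol libraries. HIF1A was the member with an unadjusted p under 0.05 in the other direction for 20(OH)D3 (log2 fold change -0.22) and for 1,20(OH)2D3 (-0.29).

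By size alone, the largest change with each compound was that of a hypoxia target with a low level, CA9 or EGLN3. CA9 was at 0.452, 1.47, 1.94, 1.31 and 2.43 FPKM in VDR-KD, against 2.66, 4.24, 1.50, 2.76 and 1.95 FPKM in VDR-WT. In VDR-KD its ethanol value was the lowest and in VDR-WT it was not, and 25(OH)D3 and 1,25(OH)2D3 stood above ethanol in VDR-KD but below it in VDR-WT. With 20(OH)D3 it stood above ethanol in both (log2 fold change 1.08, adjusted p = 0.467). EGLN3 was at 1.03, 1.11, 0.586, 1.70 and 0.930 FPKM in VDR-KD, against 0.748, 4.31, 1.03, 2.08 and 1.26 FPKM in VDR-WT. The VDR-WT 20(OH)D3 value stood apart there, and the log2 fold change with 20(OH)D3 was 1.23 (adjusted p = 0.326). ANKRD37 had log2 fold changes of 0.67 with 1,25(OH)2D3, 0.65 with 1,20(OH)2D3 and 0.64 with 20(OH)D3, none past the test. At higher levels, DDIT4 with 1,25(OH)2D3 stood 1.03 (VDR-KD) and 0.52 (VDR-WT) above ethanol on the log2 scale. BNIP3L with 20(OH)D3 stood 0.89 (VDR-KD) and 0.40 (VDR-WT) above it, and neither gene passed the test there. With 25(OH)D3 the largest log2 fold changes were those of CA9 (0.55), ALDOC (0.39), DDIT4 (-0.29) and SLC2A1 (0.28).

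Compounds that differ in 1 hydroxyl group were compared at the same dose and time, in 4 pairs. With the hydroxyl at C1α, 1,25(OH)2D3 against its precursor 25(OH)D3 gave 7 genes higher and none lower, with 2.12% of all genes higher, and a median log2 fold change of 0.28. Without the entries shared with another coding gene, 4 of 32 were higher. DDIT4, an inhibitor of mTORC1, was at 84.5, 99.5, 67.3, 108 and 172 FPKM in VDR-KD, against 118, 103, 98.7, 103 and 169 FPKM in VDR-WT. In both genotypes the 1,25(OH)2D3 value stood alone at the top, and the log2 fold change over 25(OH)D3 was 1.06 (SE 0.159, adjusted p = 0.0132). PFKFB4, a kinase of the fructose-2,6-bisphosphate switch, was at 198, 217, 209.5, 334 and 356 FPKM in VDR-KD, against 212, 202, 163, 221 and 266 FPKM in VDR-WT (log2 fold change 0.73, adjusted p = 0.0397, uncertain because of UCN2). The others were ENO2 (0.55, uncertain because of LRRC23), LDHA (0.52, adjusted p = 0.00845), PDK1 (0.50), HIF1A (0.49, adjusted p = 0.0347, uncertain because of SNAPC1) and BNIP3 (0.47). The count was 0 without the genotype term, without the trend, without the unpaired low-HSPA6 libraries and without any 1 of VDR-KD 1,25(OH)2D3, VDR-WT 1,25(OH)2D3 or VDR-WT 25(OH)D3. It was 1 without VDR-KD 25(OH)D3 and 4 without VDR-KD 20(OH)D3, VDR-KD 1,20(OH)2D3 or VDR-WT 1,20(OH)2D3. HSPA6 was at 0.72 and 0.18 FPKM with 1,25(OH)2D3, against 44.5 and 15.7 FPKM with 25(OH)D3, without passing (adjusted p = 0.101 from limma). Of 11 heat shock genes tested, 1 was lower with 1,25(OH)2D3 (HSPA1A, log2 fold change -3.75, adjusted p = 0.0412) and none higher. Of the 8 melanocytic markers 4 were higher with 1,25(OH)2D3 (MITF, MLANA, DCT and S100B) and none lower, with a sum of 8389 (VDR-KD) and 9322 (VDR-WT) FPKM, against 6063 and 6339.7 FPKM with 25(OH)D3. The part of either in the result was not tested.

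The same hydroxyl on 20(OH)D3 gave no call. For 1,20(OH)2D3 against 20(OH)D3, 0 of 36 passed (0.034% of all genes), 1 had an unadjusted p under 0.05 (7.31% of all genes), and the median was -0.004. For LDHA the difference was 0.08 with a 95% interval from -0.08 to 0.24, and for DDIT4 it was 0.06 with an interval from -0.30 to 0.42. In the place of the side chain hydroxyl, 1,25(OH)2D3 against 1,20(OH)2D3 also gave 0 calls (0.259% of all genes), with 7 at an unadjusted p under 0.05 (9.99% of all genes). HIF1A came nearest, at a log2 fold change of 0.61 (interval 0.39 to 0.83, adjusted p = 0.0556), and SLC2A3 had -0.45 (adjusted p = 0.145). The count became 1 with a filter of a mean of at least 1 FPKM. For 25(OH)D3 against 20(OH)D3, 0 passed (0.0% of all genes) and 8 had an unadjusted p under 0.05, all lower (6.6% of all genes). There all 13 hypoxia targets outside glycolysis lay below 0, beside 49.8% of all genes, with a median of -0.20. These are averages over the genotypes. With 25(OH)D3 against 20(OH)D3, CA9 was higher in VDR-KD (1.94 against 1.47 FPKM) and EGLN1 in VDR-WT (45.2 against 39.7 FPKM). The VDR-WT 20(OH)D3 library is also one of the unpaired low-HSPA6 libraries.

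Whether the responses differ between the genotypes was tested in 2 ways. For 1,25(OH)2D3 against the other 4 treatments the interaction with genotype gave 0 of 36 at an adjusted p under 0.05 (0.0% of all genes) and 0 at an unadjusted p under 0.05 (3.06% of all genes) in limma. For any compound against ethanol, a test added after the values were seen, 0 of 36 passed (0.00681% of all genes) and 4 had an unadjusted p under 0.05 (4.16% of all genes). These were GPI, CA9, ADM and ALDOC, with a larger response in VDR-KD. The median interaction was 0.24 over the 36 genes and 0.02 over all genes. In VDR-KD, 35 of 36 genes stood above their ethanol library with 20(OH)D3, 32 with 25(OH)D3, 35 with 1,20(OH)2D3 and 34 with 1,25(OH)2D3. In VDR-WT these were 25, 14, 30 and 30. Of all genes tested, 50.1%, 51.7%, 52.0% and 49.7% stood above ethanol in VDR-KD, and 48.0%, 46.6%, 48.6% and 47.8% in VDR-WT. Each count within a genotype rests on the same single ethanol library, which in VDR-KD was the lowest for most of these genes.

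**Figure D5:**
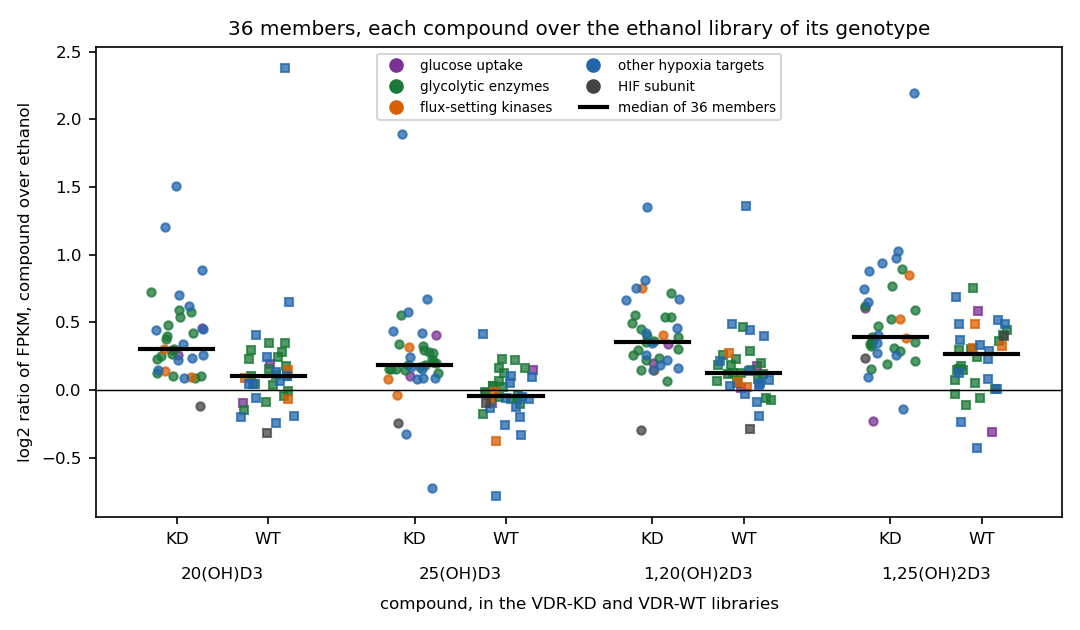
Log2 ratio of FPKM plus 0.1 of each compound library over the ethanol library of its genotype, for the 36 genes (points, colored by set), with VDR-KD (circles) left of VDR-WT (squares) for each compound and black bars for the medians. The medians are 0.31, 0.19, 0.36 and 0.39 in VDR-KD and 0.10, -0.04, 0.12 and 0.26 in VDR-WT, from 20(OH)D3 to 1,25(OH)2D3.

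Other genes of the pathways, listed with earlier results of these data known, did not all move one way. Of 27 other genes of glycolysis and pyruvate metabolism tested, 8 were higher in VDR-KD and 4 lower (29.6% and 14.8%, beside 13.1% and 9.68% of all genes), with a median log2 fold change of 0.09. LDHD, a mitochondrial D-lactate dehydrogenase, averaged 2.27 ± 0.49 FPKM in VDR-KD, against 0.849 ± 0.313 FPKM in VDR-WT (SD, n = 5 each, log2 fold change 1.36). PDK2 and PDK4, relatives of PDK1 with the same substrate, were higher in VDR-KD by 1.01 and 1.00 on the log2 scale. PDK3, the remaining kinase of the family, was lower (-0.27), as PDK1 was. PDP2, a phosphatase that opposes these kinases, was higher too (0.87), as was the transporter SLC2A6 (0.69). SLC16A1, the lactate transporter MCT1, averaged 72.6 ± 1.43 FPKM in VDR-KD, against 98.9 ± 3.16 FPKM in VDR-WT (SD, n = 5 each, log2 fold change -0.45).

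Of 32 other genes of the hypoxia response, 8 were lower in VDR-KD and 5 higher (25.0% and 15.6%, beside the same 9.68% and 13.1%), with a median of -0.09. MIR210HG, the host transcript of a hypoxia-induced microRNA, averaged 7.74 ± 2.39 FPKM in VDR-KD, against 15.8 ± 2.10 FPKM in VDR-WT (SD, n = 5 each, log2 fold change -1.06). WSB1 was lower as well (-0.70). RIMKLA (1.31), CXCR4 (0.86) and JMJD6 (0.75) were higher in VDR-KD, with means in VDR-KD of 1.64 FPKM for RIMKLA and 1.68 FPKM for CXCR4. Of 14 regulators of HIF tested, only CITED2, which competes with HIF-1 alpha for a coactivator, passed, and it was higher in VDR-KD (0.38, adjusted p = 0.0418 from limma). PGM1, PFKFB2 and SLC16A3 stood on both of the first lists, and CITED2 on both of the last. With 1,25(OH)2D3 against ethanol, 5 of the 32 hypoxia genes and 2 of the 27 glycolysis and pyruvate genes were higher, 1 of the 27 was lower, and none of the 14 regulators passed, where 1.46% of all genes were higher and 0.531% lower.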

How the data were processed

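The values are FPKM of 10 RNA-seq libraries, as deposited by the authors. The submitters' processing notes name STAR 2.7.1a for alignment, the genome build GRCh38, and Cufflinks 2.2.1 and Cuffdiff for the values. How reads with several matches were counted, which bears on genes with close copies, and which annotation was used is not stated there. FPKM values depend on what else is abundant in a library. The median log2 shift of expressed genes between libraries was -0.016 to 0.027, and no further scaling was applied.

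Libraries were grouped by the genotype and treatment in their labels. Entries averaging 0.5 FPKM or more (14689) were fitted with limma 3.58.1 in R 4.3.3 (lmFit, eBayes with a trend) on log2(FPKM + 0.1), with treatment and genotype as terms (4 residual degrees of freedom) and Benjamini-Hochberg adjustment over all genes at 0.05. Fold changes are on this scale, which understates those of low genes. Interactions were fitted with genotype, a treatment class and their product (6 residual degrees of freedom). The fit was tested on simulated data. Coordinates of genes are from GENCODE 29, and promoters from RefSeq.

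The members, lists and tests were chosen with earlier results of these data known. The rule for names takes all 36 members by set, with values in every library for members past any test, for HIF1A and for the 4 with the largest change for each compound, and up to 6 genes past the VDR-KD test from each other list. Same-treatment libraries had correlated deviations from the genotype means of 0.014 to 0.249, so the pairing rests on the labelled treatment. Alternatives changed the added constant, the filter, the scaling, the trend, the block and the libraries. Leaving out single libraries in the compound comparisons, and the interaction of any compound with genotype, were added after the data were seen.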

Additional observations from a re-analysis of the deposited data

Results flagged for a closer look

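Among the 72 groups of 5 libraries (36 genes in each genotype), 3 had a library far from the other 4 by Dixon's criterion, which chance alone reaches in about 1 of 20 groups. The libraries of a group differ in treatment, so they are not replicates of 1 condition.

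PKM, the pyruvate kinase, was 976 FPKM in VDR-KD ethanol, where the next lowest VDR-KD library had 1111 FPKM. LDHB, the lactate dehydrogenase subunit that favors pyruvate, was 846 FPKM in VDR-KD ethanol, where the next lowest VDR-KD library had 963 FPKM. Both are values of the library that was the lowest of 10 for 28 of the 36 genes. DDIT4, the inhibitor of mTORC1, was 169 FPKM in VDR-WT 1,25(OH)2D3, where the next highest VDR-WT library had 118 FPKM.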

How the results depend on the processing

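The 17 genes called for VDR-KD against VDR-WT became 8 without the replicate block (treatment), 8 without the trend and 6 without the unpaired low-HSPA6 libraries (VDR-KD 1,20(OH)2D3 and VDR-WT 20(OH)D3), and stayed within 12 to 16 when 1 treatment pair was left out. The 7 called for 1,25(OH)2D3 against ethanol became 0 without the replicate block (here the genotype term) or the trend and 1 without the unpaired low-HSPA6 libraries, with 0 to 7 when 1 library or pair was left out. The 7 called for 1,25(OH)2D3 against 25(OH)D3 became 0 under each of these 3 settings, with 0 to 8 when 1 library or pair was left out. For 1,25(OH)2D3 against 1,20(OH)2D3 the count of 0 became 1 with a mean of at least 1 FPKM, and 0 to 1 when 1 library or pair was left out. The fits that leave out libraries have fewer residual degrees of freedom, and for the block and the trend the cause was not tested. The difference of medians between enzymes and other hypoxia targets (0.35) kept its sign throughout, at 0.27 to 0.37. ALDOC in VDR-KD against VDR-WT, at 0.012 on the log2 scale and not called, changed sign to -0.014 with median scaling, to -0.041 without the unpaired low-HSPA6 libraries and between -0.029 and 0.094 when 1 pair was left out. Without read counts, the error of low genes such as CA9 and EGLN3 is unknown.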
